A study of Mus musculus with 32 samples.

Results

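The GATA transcription factors Gata1 to Gata6 were followed through mouse preimplantation development and through 2 siRNA knockdowns. The members were taken by symbol, and all 6 were present in each of the 3 expression tables, among 24034 distinct gene symbols in all. GATA factors are zinc finger proteins that bind DNA sites with the core letters GATA and often work with cofactors of the FOG family. GATA1, GATA2 and GATA3 are best known from blood cell lineages, and GATA2 and GATA3 also act in trophoblast, the precursor tissue of the placenta. GATA4, GATA5 and GATA6 are best known from heart and endoderm, and GATA4 and GATA6 also mark the primitive endoderm, the extraembryonic lineage that forms inside the blastocyst.

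Polyadenylated RNA was sequenced from 32 samples with Smart-seq2 in modified form, which copies whole transcripts from very few cells. MII oocytes (2 samples) came from superovulated C57BL/6N females 20 h after hCG. Embryos at the zygote, early 2-cell, 2-cell, 4-cell and 8-cell stages (2 samples each) and inner cell mass (ICM, 3 samples) were C57BL/6N x DBA/2N, collected after 5 IU PMSG and 5 IU hCG given 44 to 48 h apart, and the ICM was separated from blastocysts by immunosurgery. Embryonic stem cells of the mouse line R1 (mESC, 2 samples) were grown with LIF and serum. The knockdown series, also C57BL/6N x DBA/2N, held 8-cell embryos (4 libraries with Nr5a2 siRNA, 4 controls) and blastocysts (4 libraries with Gata4 siRNA, 3 controls). These embryos were injected with siRNA and cultured in CZB medium with glutamine; the labels give neither the siRNA of the controls nor the number of embryos per library. Nothing in the labels names separate litters or cultures, so every p-value below reflects library-to-library spread alone, which may be technical.

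The values were FPKM, that is, fragments per kilobase of transcript and relative to each library's mapped total. The stage table had 1 deposited value per gene and stage, so its levels have no replicate error and no test. Read totals were not used here; the spacing of low FPKM values put the deepest 8-cell knockdown-series library at 2.87 times the shallowest. The blastocyst libraries were of 2 types. Rn45s, the precursor transcript of ribosomal RNA, had a value of 0 in Gata4 knockdowns 1 and 2 and control 2 and stood at 37959 FPKM or more in the other 4 libraries. With Rn45s present, 4482 of 8782 genes were lower and 14 higher (limma adjusted p under 0.05), so values within each type are given beside the blastocyst results of the members and of the primitive endoderm list. All 12 oocyte markers reached 1 FPKM in MII oocytes, all 9 epiblast markers did so in ICM and in mESC, and 10 of 11 primitive endoderm markers did so in ICM against 0 in mESC. ICM also held 8 of 9 trophectoderm markers at 1 FPKM or more, with a summed level of 179 FPKM beside 204 FPKM in 8-cell embryos. The sums differed in make-up. Krt18 and Krt8 stood at 86.1 and 62.7 FPKM in ICM and at 9.89 and 1.33 FPKM in 8-cell embryos. Hand1 went the other way, at 7.92 FPKM in ICM and 102 FPKM in 8-cell embryos. In bulk samples such as these, fewer cells of a type and less RNA per cell cannot be told apart.

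The 250 bases upstream of Gata1 and Gata3 are shown first, since these were the members whose knockdown and control libraries did not overlap in the Nr5a2 experiment. Both come from RefSeq on GRCm38.p6, while the expression tables were made on mm9. The Gata1 window is chrX:7967911-7968160 and the Gata3 window chr2:9878601-9878850, both on the minus strand and printed 5′ to 3′ with respect to the gene. Capitals mark the letters GATA.
Gata1: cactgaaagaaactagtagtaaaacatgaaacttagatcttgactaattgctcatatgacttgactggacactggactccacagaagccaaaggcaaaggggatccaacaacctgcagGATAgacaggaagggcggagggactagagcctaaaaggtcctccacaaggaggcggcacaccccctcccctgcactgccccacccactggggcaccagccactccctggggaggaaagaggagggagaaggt
Gata3: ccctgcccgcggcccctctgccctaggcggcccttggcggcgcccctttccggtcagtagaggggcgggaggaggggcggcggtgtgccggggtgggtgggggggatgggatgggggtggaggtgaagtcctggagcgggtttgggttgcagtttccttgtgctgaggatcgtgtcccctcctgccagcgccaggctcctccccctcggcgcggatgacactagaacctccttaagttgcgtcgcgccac
The Gata1 window held the letters GATA once, starting at position -132 from the transcription start, and the Gata3 window held none. GC content was 54% for Gata1 and 70% for Gata3, and the median over 32851 upstream windows was 52.4%. The letters GATA on either strand occurred in 53.6% of those windows. The longer GATA motif, which is those letters with A or T before them and A or G after them, occurred in 26.5% of all windows and in none of the 5 windows of the 4 members with an entry (Gata1, Gata2, Gata3 and Gata5). The NR5A2 motif CAAGGTCA occurred in 1.33% of all windows and its shorter overlapping form AAGGTCA in 4.08%, and neither was in the members' windows on either strand. These counts say only which letters are in these windows.

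In the unperturbed stages the 6 genes were present at different times. Summed over the members, GATA transcripts stood at 18.3 FPKM in MII oocytes, 12.5 in zygotes and 9.64 in early 2-cell embryos. The sum was 55.8 FPKM in 2-cell, 56.3 in 4-cell and 71.0 in 8-cell embryos. It was 31.5 FPKM in ICM and 0.990 in mESC. Gata3 made up 73.7% of the sum in MII oocytes and 81.6% in zygotes, Gata1 made up 65.3% at the 2-cell, 59.5% at the 4-cell and 59.0% at the 8-cell stage, and Gata6 made up 52.2% in ICM. The leading member thus changed from Gata3 to Gata1 between early 2-cell and 2-cell embryos and from Gata1 to Gata6 between 8-cell embryos and ICM.

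**Figure D1:**
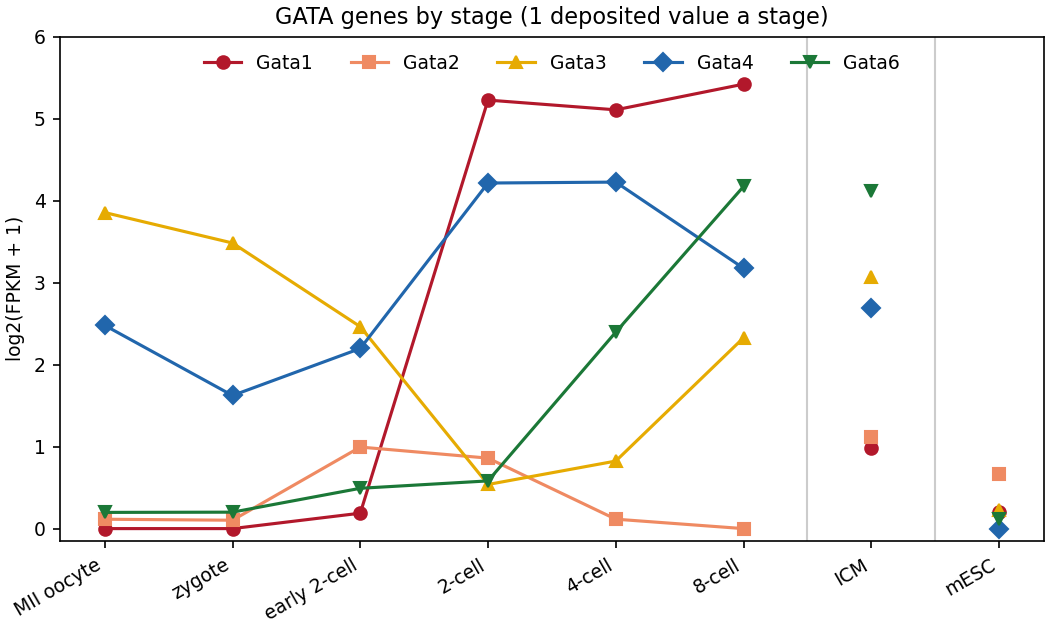
Level of 5 GATA genes at each stage as log2(FPKM + 1), with 1 deposited value per gene and stage and no error bars; lines join the oocyte-to-8-cell stages only. Gata1 is near 0 until the early 2-cell stage and above 5 from the 2-cell to the 8-cell stage, while Gata3 falls below 1 at the 2-cell and 4-cell stages and all 5 genes lie below 1 in mESC.

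Gata1, the factor that drives red blood cell and megakaryocyte differentiation, was listed at 0 in MII oocytes and zygotes and stood at 0.139 FPKM in early 2-cell embryos. It stood at 36.5 FPKM in 2-cell, 33.5 in 4-cell and 41.9 in 8-cell embryos, and at 0.975 FPKM in ICM and 0.150 in mESC. The high levels were thus limited to the stages from 2-cell to 8-cell. On the log2(FPKM + 1) scale the step from early 2-cell to 2-cell was 5.04 higher, and the step from 8-cell to ICM was 4.44 lower. A step was counted where this difference was at least 1 and the higher stage reached 5 FPKM. By that rule, and among genes with at least 1 FPKM in either stage, 22.7% were higher in 2-cell than in early 2-cell embryos and 14% were lower in ICM than in 8-cell embryos. At its highest stage Gata1 ranked 1592nd by FPKM among all genes.

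Gata2, a factor of blood progenitors and trophoblast, stayed low at every stage. It stood at 0.0825 FPKM in MII oocytes, 0.0733 in zygotes, 0.993 in early 2-cell and 0.815 in 2-cell embryos. Its level was 0.0830 FPKM in 4-cell embryos, 1.18 in ICM and 0.586 in mESC, and it was listed at 0 in 8-cell embryos. No step of Gata2 met the rule.

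Gata3, a factor of T cells and of the trophectoderm, stood at 13.5 FPKM in MII oocytes, 10.2 in zygotes and 4.51 in early 2-cell embryos. It stood at 0.452 FPKM in 2-cell, 0.770 in 4-cell and 4.02 in 8-cell embryos, and at 7.43 FPKM in ICM and 0.169 in mESC. From oocyte to ICM, levels were thus higher before and after a trough at the 2-cell and 4-cell stages, and the lowest level of all was in mESC. The step from zygote to early 2-cell met the rule, at 1.02 lower (log2 difference -1.02), as did that of 5.22% of genes in the same direction. The larger log2 difference of -1.93 from early 2-cell to 2-cell missed it because Gata3 did not reach 5 FPKM in the higher stage.

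Gata4, a factor of heart, gonad and endoderm, stood at 4.57 FPKM in MII oocytes, 2.08 in zygotes and 3.59 in early 2-cell embryos. It stood at 17.6 FPKM in 2-cell, 17.7 in 4-cell and 8.04 in 8-cell embryos, and at 5.44 FPKM in ICM, and was listed at 0 in mESC. The 2-cell and 4-cell stages were thus its highest, with transcripts already present in the oocyte. The early 2-cell to 2-cell step was 2.02 higher on the log2 scale. The 4-cell to 8-cell step was lower (log2 difference -1.05), and 6.06% of genes were lower by the rule there.

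Gata5, a factor of endoderm and the heart's inner lining, was listed at 0 at every stage except ICM, where it stood at 0.0366 FPKM. Gata6, which is required for primitive endoderm in the mouse blastocyst, stood at 0.147 FPKM in MII oocytes, 0.149 in zygotes, 0.406 in early 2-cell and 0.497 in 2-cell embryos. It then stood at 4.27 FPKM in 4-cell and 17.0 in 8-cell embryos, at 16.4 FPKM in ICM and at 0.0851 in mESC. The step from 4-cell to 8-cell was 1.78 higher, and 4.3% of genes were higher by the rule at that step. Gata6 thus stood close to its 8-cell level in ICM, where Gata1 was below 1 FPKM. The opposite-strand gene 1010001N08Rik overlaps Gata6 and stood at 0.661 FPKM in 4-cell embryos, 2.94 in 8-cell embryos and 3.29 in ICM. Smart-seq2 does not mark the strand, so Gata6 levels may include its reads.

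From ICM to mESC, Gata3, Gata4 and Gata6 were lower by the rule, with log2 differences of -2.85, -2.69 and -4.00, and 25% of genes were lower at that step. No member met the rule from MII oocyte to zygote (8.19% of genes higher, 14.1% lower) or from 2-cell to 4-cell (15.3% higher, 11% lower), none was higher from zygote to early 2-cell (3.26%), from 8-cell to ICM (17.8%) or from ICM to mESC (7.16%), and none was lower from early 2-cell to 2-cell (22.4%). With 1 value per stage, neighbours in each gene's order of stages, such as 4-cell and 2-cell for Gata4 or 8-cell and ICM for Gata6, cannot be ranked against a spread. Scaling every stage to 1 common median left each member's highest stage in place except for Gata2, whose highest stage became early 2-cell (1.14 FPKM) in place of ICM (0.981), and Gata4, whose 2-cell (16.6) and 4-cell (15.3) levels changed places as the highest.

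**Figure D2:**
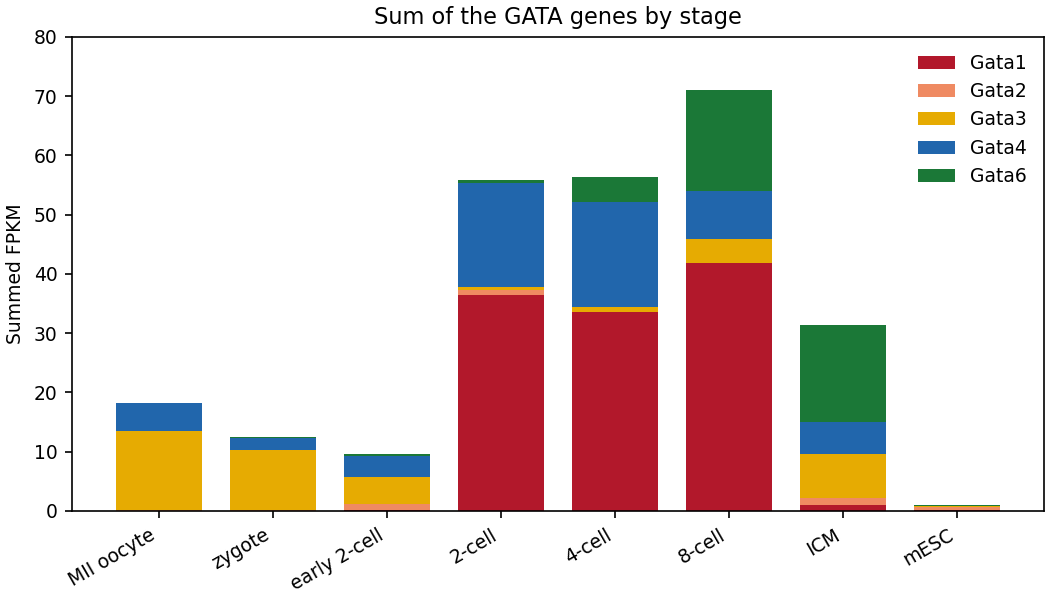
Summed FPKM of the GATA genes at each stage, stacked by gene (Gata5, at most 0.0366 FPKM, is not drawn). The sum lies between 9.64 and 18.3 until the early 2-cell stage, between 55.8 and 71.0 from the 2-cell to the 8-cell stage, and at 0.990 in mESC.

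The genes most like each member over the 8 stages were ranked by Pearson r of log2(FPKM + 1) among the 9573 genes with at least 5 FPKM at some stage, passing over unnamed loci and the members. Because the points are 8 pooled stages that all genes share, r is only a description. For Gata1 they were Plcd4, a phosphoinositide phospholipase C (r = 0.999), Nr2c2, an orphan nuclear receptor (0.994), and Apaf1, the scaffold of the apoptosome (0.994). For Gata3 they were P4ha1, a collagen prolyl hydroxylase subunit (0.977), Sec23a, a coat protein of vesicles leaving the endoplasmic reticulum (0.963), and Exoc6, an exocyst subunit (0.961). For Gata4 they were Gde1, a glycerophosphodiester phosphodiesterase (0.988), Fam13b (0.964) and Rnf19b, an E3 ubiquitin ligase (0.962). For Gata6 they were Mep1b, the meprin beta protease (0.983), Spint1, a serine protease inhibitor (0.982), and Mboat1, a lysophospholipid acyltransferase (0.977). The best match of the low Gata2 was weaker, with Ipo9, an importin, at 0.879. Among pairs of members, Gata1 and Gata4 were the most alike (r = 0.784) and Gata1 and Gata3 the least (r = -0.50). With a pseudocount of 0.1 the named genes stayed among the 3 most alike in 2 of 3 cases for Gata1 and Gata3, in 1 of 3 for Gata2 and Gata6 and in 0 of 3 for Gata4. Of the 15 genes so named, 14 were tested in the Nr5a2 knockdown and 11 in the Gata4 knockdown, and 0 passed in either (limma; lowest adjusted p 0.203 and 0.99997, with 3 of 14 and 1 of 11 at an unadjusted p under 0.05, beside 20.6% and 2.30% of all genes tested). Plcd4, the closest to Gata1 over the stages, had a mean of 4.58 FPKM in controls and 3.92 FPKM in Nr5a2 knockdowns (log2 fold change -0.44, SE 0.45, adjusted p = 0.606).

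The Nr5a2 knockdown asked which transcripts differ at the 8-cell stage when NR5A2, an orphan nuclear receptor of the early embryo, is depleted. Gata1 was lower in the knockdown, Gata3 was higher in every knockdown library without passing the adjusted threshold, and Gata4 and Gata6 overlapped between the groups. Gata2 was near 0 and Gata5 was listed at 0 in all 8 libraries. Nr5a2 itself fell from 20.6 ± 5.39 to 5.33 ± 1.54 FPKM (SD, n = 4 each; log2 fold change -1.76, limma adjusted p = 0.0143). Of the 6 members 4 passed the filter of 1 FPKM in at least 4 libraries, and 1 of the 4 was called, against 2.26% of the 8170 genes tested.

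Gata1 stood at 28.6, 23.4, 18.8 and 29.0 FPKM in controls 1 to 4 and at 7.13, 0.958, 7.08 and 1.18 FPKM in Nr5a2 knockdowns 1 to 4. Every knockdown library lay below every control library, and the knockdown libraries themselves fell into a pair near 7 and a pair near 1 FPKM. On average Gata1 fell 6.09-fold, from 24.9 ± 4.83 in controls to 4.09 ± 3.49 FPKM (SD, n = 4 each), and its log2 fold change was -2.64 (SE 0.47, limma adjusted p = 0.0193). This was the 6th largest fall of all genes tested, in a table in which 0.698% of genes were called lower and 3.45% had all knockdown libraries below all controls. The exact permutation p, two-sided, was 0.0286, which is the lowest value possible with 70 arrangements. Gata1 was no longer called without control 1 (adjusted p = 0.0731), control 2 (0.0551) or knockdown 2 (0.0507) or without the filter on low values (0.123), while the log2 fold change lay between -3.09 and -1.79 over the 17 fits run, the reported one included.

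Gata3 stood at 0.182, 3.36, 2.51 and 2.42 FPKM in controls 1 to 4 and at 13.2, 11.03, 4.87 and 7.05 FPKM in knockdowns 1 to 4. All knockdown libraries lay above all controls, and control 1 lay apart below the other controls. Mean levels were 2.12 ± 1.36 and 9.04 ± 3.77 FPKM (SD, n = 4 each), a 4.27-fold difference, or 1.76 on the log2 scale (SE 0.42). The limma adjusted p of 0.0557 missed the threshold of 0.05, and the exact permutation p was 0.0286, again the lowest possible. Gata3 passed with a pseudocount of 5 (adjusted p = 0.0463) and without knockdown 3 (0.0414); over the other fits its adjusted p lay between 0.0557 and 0.181. Groups without overlap and higher in the knockdown were seen in 8.38% of all genes tested, so Gata3 shared this pattern with many genes. Its overlapping neighbours 4930412O13Rik and 9230102O04Rik stood at no more than 0.0884 and 0.518 FPKM in these libraries; Smart-seq2 does not mark the strand, so reads of overlapping genes cannot be told apart.

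**Figure D3:**
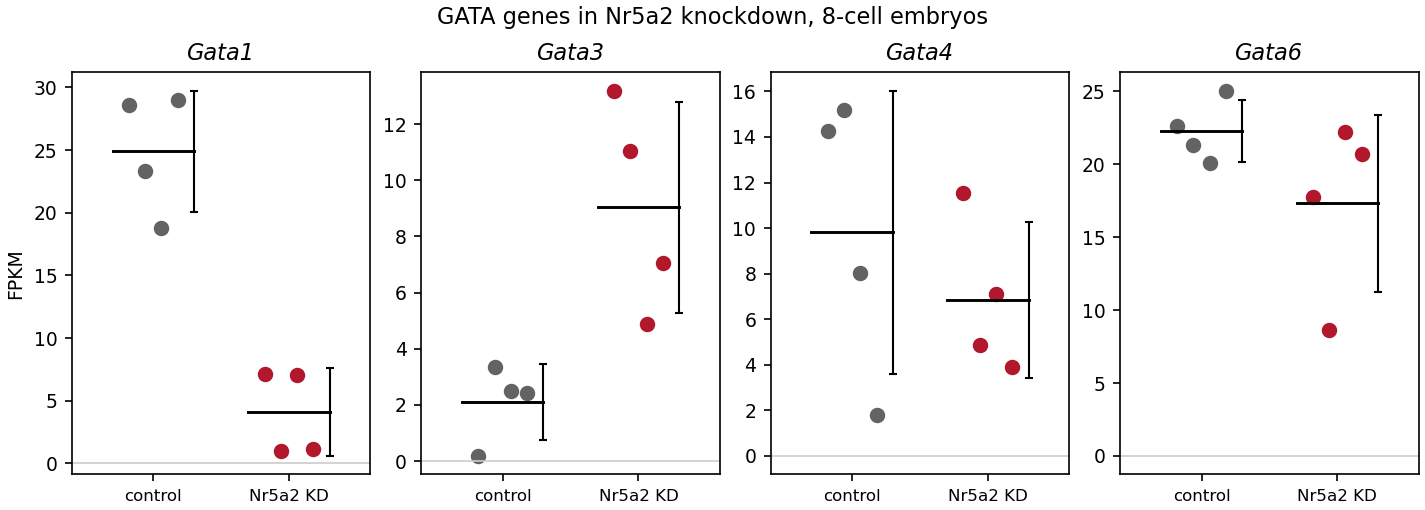
FPKM of 4 GATA genes in each 8-cell library, 4 controls (grey) and 4 Nr5a2 knockdowns (red); horizontal bars are means and vertical bars SD. Gata1 (18.8 to 29.0 against 0.958 to 7.13) and Gata3 (0.182 to 3.36 against 4.87 to 13.2) do not overlap between the groups, while Gata4 and Gata6 do.

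Gata4 stood at 14.3, 15.2, 8.04 and 1.78 FPKM in controls 1 to 4 and at 11.5, 4.85, 7.09 and 3.90 FPKM in knockdowns 1 to 4. The groups overlapped throughout, with both the highest and the lowest library among the controls. The log2 fold change was -0.27 (SE 0.52, limma adjusted p = 0.795; exact permutation p = 0.686).

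Gata6 stood at 22.7, 21.3, 20.1 and 25.1 FPKM in controls 1 to 4 and at 17.8, 8.67, 22.2 and 20.7 FPKM in knockdowns 1 to 4. Knockdown 2 was the lowest of the 8 libraries, and knockdowns 3 and 4 lay within the control range. The log2 fold change was -0.42 (SE 0.27, limma adjusted p = 0.411; exact permutation p = 0.171). The opposite-strand gene 1010001N08Rik overlaps Gata6 and stood at 2.73 to 11.2 FPKM in controls and 4.12 to 11.9 FPKM in knockdowns, so Gata6 levels here may include its reads and are uncertain to that extent.

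Gata2 was listed at 0 in controls 1 and 3 and stood at 0.0393 and 0.655 FPKM in controls 2 and 4. It was listed at 0 in knockdowns 1 and 2 and stood at 0.0606 and 0.328 FPKM in knockdowns 3 and 4. The values overlapped and lay below the filter (exact permutation p = 0.886), and at this depth no difference was detectable.

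Summed over the members, GATA transcripts stood at 65.7, 63.2, 49.4 and 58.9 FPKM in controls 1 to 4 and at 49.6, 25.5, 41.3 and 33.2 FPKM in knockdowns 1 to 4. Only knockdown 1 reached into the control range, just above control 3. Gata1 made up 37.0 to 49.2% of the sum in controls and 3.56 to 17.2% in knockdowns. The share of Gata3 was 0.277 to 5.31% in controls and 11.8 to 43.2% in knockdowns. Gata1 thus exceeded Gata3 in every control library, and Gata3 exceeded Gata1 in knockdowns 1, 2 and 4. These shares were formed after the members' values were seen and carry no test. In the uninjected 8-cell embryos of the stage table, Gata1 made up 59.0%, Gata3 5.66%, Gata4 11.3% and Gata6 24.0% of the sum.

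**Figure D4:**
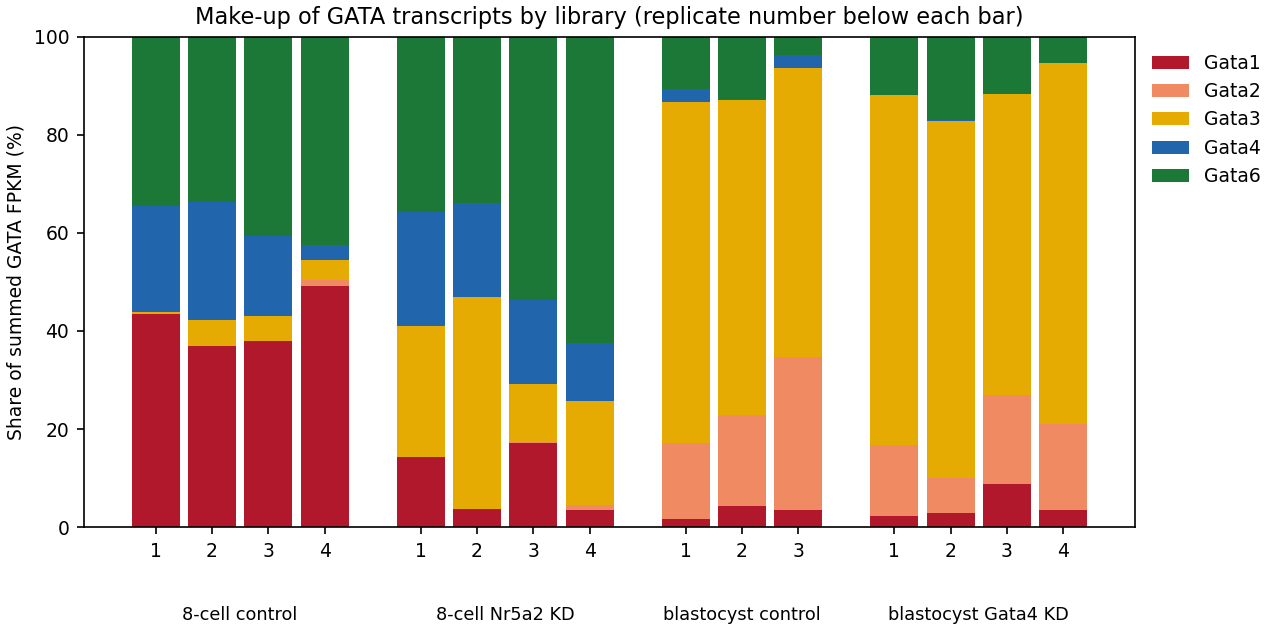
Share of each GATA gene in the summed GATA FPKM of each library, in percent, for the 8-cell and the blastocyst knockdown series (Gata5 is listed at 0 throughout). Gata1 takes 37.0 to 49.2% in 8-cell controls and 3.56 to 17.2% in Nr5a2 knockdowns, and Gata3 takes 59.0 to 73.6% in all blastocyst libraries.

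Genes that work with or downstream of GATA factors were read as lists beside all 8170 genes, of which 128 rose (1.57%) and 57 fell (median log2 fold change 0.12; 75 rose and 80 fell when libraries were scaled to 1 median). An unadjusted p under 0.05 was seen in 20.6% of all genes tested. Of 10 tested cofactors, 0 were called and 7 lay higher (median 0.11); the smallest p was that of Med1, a Mediator subunit that binds GATA1 (log2 fold change 0.55, adjusted p = 0.163). Spi1, the blood factor PU.1 known as an antagonist of GATA1, stood at 15.3, 21.5, 9.12 and 41.7 FPKM in controls and at 16.0, 9.73, 18.05 and 14.9 FPKM in knockdowns (log2 fold change -0.38, adjusted p = 0.601). Of 6 tested GATA1 target genes of red cells and megakaryocytes, 1 rose and 0 fell (median -0.04). It was Urod, a haem synthesis enzyme, with 65.0 ± 14.2 and 143 ± 39.5 FPKM (SD, n = 4 each; log2 fold change 1.10, adjusted p = 0.0441), and it kept its call in 1 of 8 fits without 1 library. Of 5 other GATA-type zinc finger genes 0 were called (median -0.32), with unadjusted p under 0.05 in 0. The summed level of the 11 blood markers found was 17.3 to 56.2 FPKM in controls and 29.4 to 38.5 in knockdowns, most of it Spi1 and Coro1a. Coro1a, an actin-binding protein of white blood cells, stood at 1.21 to 12.8 FPKM in controls and 8.45 to 17.9 FPKM in knockdowns. Cd52 stood at 2.53 to 5.61 and 2.39 to 8.80 FPKM, Kit at 0.680 to 1.49 and 0.515 to 1.32 FPKM, and Alas2, Laptm5 and Lyz2 at no more than 1.14 FPKM. Ptprc, Hbb-b1 and Cd34 were listed at 0 in all 8 libraries. The part of these markers in the Gata1 and Gata3 differences was not tested. Granulosa and cumulus cell markers summed to at most 0.259 FPKM.

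Lineage genes of the early embryo were read in the same way. Of 12 tested trophectoderm genes 1 rose and 0 fell (median -0.28): Ly6a, a GPI-anchored surface protein, went from 47.4 ± 25.9 to 191 ± 78.9 FPKM (SD, n = 4 each; 2.11, adjusted p = 0.0404), called in 1 of 8 fits without 1 library; 5 of the 12 had an unadjusted p under 0.05. Of 9 tested primitive endoderm genes 0 were called (median -0.04), with 3 of the 9 at an unadjusted p under 0.05. Of 10 tested epiblast genes 2 fell, Tdgf1 and Tdh (median -0.33, with 3 of the 10 at an unadjusted p under 0.05). Mean Tdgf1 was 58.5 FPKM in controls and 2.16 in knockdowns (log2 fold change -4.44, limma adjusted p = 0.00182). Mean Tdh was 37.6 and 2.51 FPKM (-3.50, limma adjusted p = 0.0138). Both kept their call in 8 of 8 fits without 1 library. Their levels are uncertain because each has a near-identical copy elsewhere in the genome. Of 17 tested Hippo and FGF pathway genes 3 rose and 1 fell (median -0.20), and 7 of the 17 had an unadjusted p under 0.05. Those that rose were Spry2 and Dusp6, feedback inhibitors of FGF-ERK signalling (log2 fold changes 1.76 and 2.78), and Wwtr1, the Hippo pathway coactivator TAZ (2.05). The one that fell was Grb2, the adaptor between FGF receptors and RAS (-1.12), also with a near-identical copy. Dusp6 stood at no more than 0.218 FPKM in controls and at 1.05 to 23.2 FPKM in knockdowns, so it entered the test only through the knockdown libraries, and without the filter its adjusted p was 0.170. Without 1 library each, Spry2 was called in 6, Wwtr1 in 4, Dusp6 in 1 and Grb2 in 1 of 8 fits. Trophectoderm markers summed to 190 to 293 FPKM in controls and 179 to 305 FPKM in knockdowns. Single markers within this sum went both ways. The mean of Krt18 was 24.2 FPKM in controls and 43.1 in knockdowns, and that of Tead4 was 90.1 and 53.8 FPKM, neither of them called. Epiblast markers summed to 174 to 298 FPKM in controls and 52.5 to 179 FPKM in knockdowns. The part of these markers in the Gata1 and Gata3 differences was not tested.

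The Gata4 knockdown asked which transcripts differ in blastocysts after injection of Gata4 siRNA. Gata4 itself was near 0 in the knockdown libraries, and the other members showed no difference beyond the spread between libraries. Gata3 and Gata2 were the most abundant members here and Gata5 was listed at 0 in all 7 libraries. Of the 6 members 4 passed the filter, with Gata4 and Gata5 below it, and 0 of the 4 were called by limma, against 0.0342% of the 8782 genes tested (3 genes, all lower). None of the 4 had an unadjusted p under 0.05, and over all genes 202 did.

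Gata4 stood at 3.18, 0.716 and 5.44 FPKM in controls 1 to 3 and was listed at 0 in knockdowns 1, 3 and 4, with 0.368 FPKM in knockdown 2. Every knockdown library lay below every control, although control 2 was itself under 1 FPKM. The difference of mean log2(FPKM + 1) was -1.73, and the two-sided exact permutation p of 0.0571 was the smallest that 35 arrangements allow, so this design could not reach 0.05. Among the genes tested, 1.43% had all knockdown libraries below all controls and 0.945% had all above, 2.38% together. Between the libraries with Rn45s the difference was -2.38 (controls 1 and 3 against knockdowns 3 and 4), and between those without it was -0.55 (control 2 against knockdowns 1 and 2). Gata4 did not pass the filter, and in the limma fit without a filter its unadjusted p was 0.00426 and its adjusted p 1.

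Gata2 stood at 17.8, 38.1 and 65.3 FPKM in controls 1 to 3 and at 30.3, 11.1, 15.3 and 21.2 FPKM in knockdowns 1 to 4. Controls 2 and 3 lay above all knockdown libraries and control 1 lay among them. The means were 40.4 ± 23.8 (SD, n = 3) and 19.5 ± 8.29 FPKM (SD, n = 4). The log2 fold change was -0.92 (SE 0.47, limma adjusted p = 0.99997, exact permutation p = 0.171). It was -0.89 between libraries with Rn45s and -1.01 between those without, and over the 7 fits without 1 library it lay between -1.40 and -0.49.

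Gata3 stood at 79.6, 132 and 123 FPKM in controls 1 to 3 and at 150, 113, 51.5 and 89.2 FPKM in knockdowns 1 to 4. The highest and the lowest library were both knockdowns. The log2 fold change was -0.21 (SE 0.43, limma adjusted p = 0.99997; exact permutation p = 0.743), and turned to 0.074 without knockdown 3. It was -0.54 between the libraries with Rn45s and -0.021 between those without. Gata3 made up 59.0 to 73.6% of the summed GATA FPKM in the 7 libraries, and Gata2 7.17 to 31.2%. The gene 9230102O04Rik, which overlaps Gata3, stood at 0.570 to 1.67 FPKM in controls and 0.890 to 5.21 FPKM in knockdowns.

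Gata1 stood at 1.797, 8.81 and 7.30 FPKM in controls 1 to 3 and at 4.84, 4.48, 7.31 and 4.22 FPKM in knockdowns 1 to 4. All knockdown libraries lay inside the range of the controls. The log2 fold change was -0.0011 (SE 0.44, limma adjusted p = 0.99997; exact permutation p = 0.857) and its sign turned with scaling. It was 0.45 between the libraries with Rn45s and -0.80 between those without, so the types differed in sign; that difference was not tested.

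Gata6 stood at 12.1, 26.0 and 7.81 FPKM in controls 1 to 3 and at 25.0, 26.3, 9.83 and 6.55 FPKM in knockdowns 1 to 4. The 3 libraries at 25.0 FPKM or more were those in which Rn45s was listed at 0. Between the types Gata6 was lower with Rn45s (log2 difference -1.47, limma adjusted p = 0.00455), and Gata3 was -0.73 (adjusted p = 0.0519), Gata1 -0.28 and Gata2 -0.08. The log2 fold change of Gata6 in the knockdown was 0.09 (SE 0.49, limma adjusted p = 0.99997; exact permutation p = 1), and with library type as a covariate it was -0.16. It was -0.25 between the libraries with Rn45s and -0.019 between those without. The overlapping gene 1010001N08Rik stood at 3.97 to 7.45 FPKM in controls and 1.94 to 7.84 FPKM in knockdowns. Gata6 levels in blastocysts may thus include its reads.

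**Figure D5:**
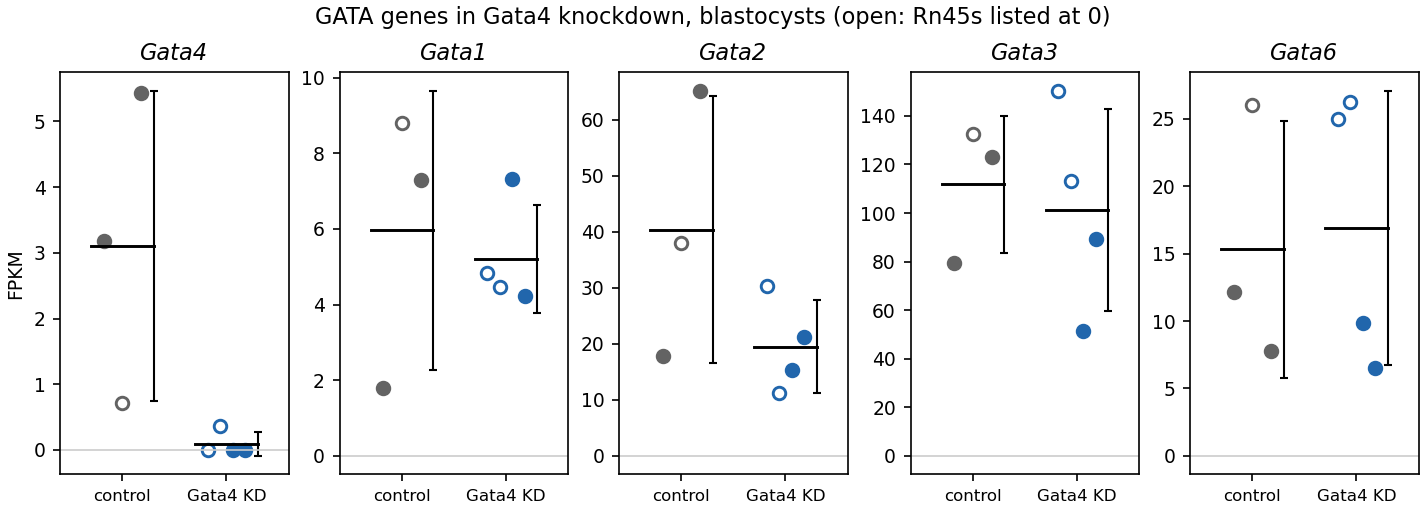
FPKM of 5 GATA genes in each blastocyst library, 3 controls (grey) and 4 Gata4 knockdowns (blue), open points where Rn45s is listed at 0; horizontal bars are means and vertical bars SD. Gata4 is at 0.716 to 5.44 in controls and at most 0.368 in knockdowns, the other genes overlap, and the open points of Gata6 lie at 25.0 or above in both groups.

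Primitive endoderm genes were read as a list because GATA4 and GATA6 act in that lineage. Of 20 tested, 0 were called, 16 lay lower and 4 higher (median log2 fold change -0.89, beside -0.02 over all genes), and 10 had an unadjusted p under 0.05, beside 2.30% of all genes. Within the libraries with Rn45s 16 of the 20 lay lower (median -1.43), beside 5997 of all 8782 genes (median -0.18). Within those without, where control 2 was the only control, 15 of the 20 lay lower (median -0.24), beside 4784 of all genes (median -0.037). Over all 29 found in the table, filter or not, 24 lay lower and 5 higher (median -0.67). The smallest p belonged to Tfpi, an inhibitor of the tissue factor pathway (-1.49, adjusted p = 0.245), Serpinh1, a collagen chaperone (-1.61, 0.339), and Lama1, a laminin chain of the basement membrane (-1.56, 0.447). Primitive endoderm markers at 1 FPKM or more numbered 4 to 8 of 11 in controls and 2 to 5 in knockdowns, with summed levels of 84.5 to 128 FPKM and 62.9 to 151 FPKM. Dab2, an endocytic adaptor, was the highest of them in every library, at 58.9 to 101 FPKM in controls and 54.6 to 142 FPKM in knockdowns. In ICM, whose values were made separately, Dab2 stood at 9.63 FPKM, below its range in control blastocysts. Whether its level in whole blastocysts reflects primitive endoderm was not tested. The other 10 markers, set apart after the values were seen, summed to 25.6, 15.5 and 64.9 FPKM in controls 1 to 3 and to 9.18, 15.1, 8.28 and 6.24 FPKM in knockdowns 1 to 4. Without Dab2 the knockdown sums lay below the control sums, by a small margin between control 2 and knockdown 2. With Dab2 the sums overlapped. Mean Dab2 was higher in knockdowns (97.1 against 74.3 FPKM), so leaving it out favours lower knockdown sums, and no test was made. Among single genes tested, 1.43% had all knockdown libraries below all controls. Of 22 tested genes of the trophectoderm list 1 fell, the water channel Aqp8, and the median was 0.01. Aqp8 stood at 4.00 to 15.1 FPKM in controls and at most 0.630 FPKM in knockdowns (log2 fold change -2.72, limma adjusted p = 0.000850). It was listed at 0 in knockdown 4. Aqp8 was called in all 7 fits without 1 library. It was not called with library type as a covariate (limma adjusted p = 0.361), with median scaling (0.478), with quantile normalization (0.643) or without the filter (0.687). No knockdown library reached 1 FPKM, so Aqp8 entered the test only through the controls. In ICM, whose values were made separately, Aqp8 stood at 99.3 FPKM, above its range in control blastocysts. Its place on the trophectoderm list is thus uncertain. Of 10 epiblast genes 0 were called (median -0.33), of 22 Hippo and FGF genes 0 (0.03), of 14 cofactors 0 (-0.10), of 9 GATA1 target genes 0 (-0.11) and of 7 other GATA-type zinc finger genes 0 (0.05).

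Levels in ICM and whole blastocysts came from separately made tables and are given side by side without a test. Gata2 stood at 1.18 FPKM in ICM and at 17.8 to 65.3 FPKM in control blastocysts, and Gata3 at 7.43 and at 79.6 to 132 FPKM. Gata1 stood at 0.975 FPKM in ICM and at 1.797 to 8.81 FPKM in blastocysts. Gata4 stood at 5.44 and at 0.716 to 5.44 FPKM, and Gata6 at 16.4 and at 7.81 to 26.0 FPKM. Summed trophectoderm markers stood at 179 FPKM in ICM and 2591 to 3464 FPKM in control blastocysts. Gata2 and Gata3, the members known from trophoblast, thus stood higher in blastocysts, where the trophectoderm marker sum was higher too, and so did Gata1. Over the stages Gata2 and Gata3 did not follow that sum. In 4-cell embryos the markers summed to 216 FPKM, with Gata3 at 0.770 and Gata2 at 0.0830 FPKM. Most of that 4-cell sum was Hand1 (119 FPKM), Tfap2c (60.1) and Tead4 (33.9), with Krt18 at 1.59 FPKM and Cdx2 listed at 0. In control blastocysts Krt18 stood at 1874 to 2534 FPKM and Hand1 at no more than 0.605 FPKM. The sums of 4-cell embryos and blastocysts thus stand for different genes. Gata4 and Gata6 in ICM lay within or at the edge of the blastocyst range.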

How the data were processed

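The authors deposited FPKM values in 1 stage table with 1 column per stage and 2 knockdown tables with 1 column per library. Per the submitters' processing notes, CASAVA 1.8, STAR 2.4.0 and the build mm9 are named for all 32 samples and Cufflinks 2.2.1 for 20 of them, with no role or order given. How the samples of a stage became 1 column is not given in the sources used here. For MII oocytes 30 genes, none a member, lacked a value. No column of values was left unused. FPKM is relative to each library's total, so an abundant transcript in a library lowers all other values in it.

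The members and gene lists were chosen with earlier results of these data known. A gene was tested if it reached 1 FPKM in a number of libraries equal to the size of the smaller group, and log2(FPKM + 1) was compared with limma 3.58.1 (R 4.3.3) with a trend in the prior variance, using the libraries of 1 table only. A fold change on this scale understates the change of low genes. The Benjamini-Hochberg adjustment ran over every gene tested in a table, with a threshold of 0.05. Single members were also tested by exact permutation (every arrangement enumerated, two-sided p as 2 times the smaller tail), for 6 members in each of the tables and with no adjustment over them; Gata5 gave no value. Genes named from a list were those past the threshold, otherwise up to 3 with the smallest p; for each member the 3 genes with the highest r over the stages were named, and Spi1, the blood markers and Dab2 were named after their values were seen. The fit was also run on simulated data drawn without library types, so that run does not cover the split seen among the blastocyst libraries. Copies were searched with minimap2 2.31 in GENCODE M21 (95% identity over 50% of the coding length); no member had one. Other work used scipy 1.17.1, pandas 2.3.3, matplotlib 3.10.9, numpy 2.4.6 and Python 3.11.15. Alternatives were other pseudocounts, filters and scalings, no variance trend, a replicate block, library type, and leaving out each library.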

Additional observations from a re-analysis of the deposited data

Results flagged for a closer look

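Of 15 groups of 4 libraries examined, one for each member and group, 2 held a library farther from the others than Dixon's limit. Chance alone gives about 1 in 20 for normally spread values, a rate that does not hold where libraries are listed at 0. Gata2 stood at 0.655 FPKM in 8-cell control 4, while the other 8-cell controls were at 0, 0.0393 and 0. Gata4 stood at 0.368 FPKM in blastocyst Gata4 knockdown 2, while the other knockdown libraries were listed at 0. With the others at 0, any value above 0 passes the limit, so this flag tells nothing more. Both values are below 1 FPKM, where single fragments set the steps.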

How the results depend on the processing

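In the Nr5a2 knockdown 185 genes were called, against 108 with a pseudocount of 0.1, 11 without a filter on low values, 55 with the replicate block and 21 to 285 without 1 library each. In the Gata4 knockdown 3 were called, against 1 with a pseudocount of 0.1, 0 without a filter, with a filter of 5 FPKM, with median scaling, with quantile normalization, with library type as a covariate and within the libraries with Rn45s, 1 within those without, 18 with the replicate block and 1 to 27 without 1 library each. With the replicate block Gata1 kept its call in the Nr5a2 knockdown (adjusted p = 0.0447). The labels' replicate numbers are shared between control and knockdown. Deviations of same-numbered libraries from their group means had r of -0.11 to 0.08 in 8-cell embryos and -0.10 to 0.28 in blastocysts. With 3 or 4 libraries in a group, such values cannot decide whether same-numbered libraries were paired.

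Of the uncalled members, 8-cell Gata4 lay between -0.83 and 0.015 and 8-cell Gata2 between -0.17 and 0.10 without 1 library each. Blastocyst Gata1 turned to 0.052 with a pseudocount of 0.1, 0.068 with median scaling, 0.071 with quantile normalization, 0.074 with the replicate block and 0.45 within the libraries with Rn45s, was -0.80 within those without, and lay between -0.56 and 0.34 without 1 library each. Blastocyst Gata3 lay between -0.44 and 0.074 and Gata6 between -0.28 and 0.53 without 1 library each; Gata6 turned to -0.16 with library type as a covariate, -0.25 within the libraries with Rn45s and -0.019 within those without. The cause of these changes was not tested. The stage levels rest on 1 value each, and FPKM gives no read counts, so members below 1 FPKM are limited by depth.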
